A study of Caenorhabditis elegans with 2 samples.

Results

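MicroRNAs are short RNAs cut from hairpin precursors. They guide an Argonaute protein to messenger RNAs that pair with the seed, bases 2 to 8 from the 5′ end, and so lower the output of those messages. The first microRNA genes known, lin-4 and let-7, were found in the nematode Caenorhabditis elegans as timers of larval development, and others of this animal are known for roles in lifespan, stress resistance and the intestine. ETS-4 is a worm transcription factor of the ETS family, known for its part in fat metabolism and ageing. The genes described here are all 261 genes of biotype miRNA in the Ensembl annotation of assembly WBcel235, of 46890 annotated genes on the 6 chromosomes. A gene was counted as having a region when the summit, the point of highest signal in the region, lay inside the gene or within 1000 bp upstream of its annotated 5′ end. The median annotated length was 95 bp, from 52 bp to the 1732 bp given for let-7, so most of the window is upstream sequence for a gene of median length, but not for let-7.

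The data come from chromatin immunoprecipitation with sequencing in whole animals of strain RAF1713, collected as mixed-sex young adults of 73 h that had been synchronised as starved L1 larvae after bleaching. The strain carries the insertion rrrSi400 on II, in which the promoter Pets-4 drives ets-4-GFP with its ets-4 3'UTR beside the rescue marker unc-119(+), and has the background allele unc-119(ed3) on III. Tagged ETS-4 (GFP-FLAG at the C terminus) is thus made from an inserted copy, and both replicates carry all of this. The 2 biological replicates form the only group, no precipitate without the tag was analysed here, and with no contrast no p-value is given. Per the labels the precipitation used an antibody against GFP, although their antibody field names ets-4. The authors deposited a list of 30000 candidate regions (peaks and background) for each replicate, a list of 30000 from both replicates pooled, and a list of 1102 regions that passed their threshold on the irreproducible discovery rate (IDR). The 1102 IDR regions are the pooled regions with the highest signal value, a caller's score of enrichment that can be compared only within a list. Positions are on build ce11, ranks count from 1 for the highest signal in a list, and distances are negative upstream. A whole-animal list does not say in which cells a region was occupied, and the read depth behind the regions is unknown.

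Of the 261 miRNA genes, 15 had an IDR region, which is 5.75% (Wilson 95% interval 3.51 to 9.26, counting error over genes only). The same rule gave 2.97% of all annotated genes and 4.22% of protein-coding genes, whose windows are longer because their bodies are. In a window as long as that of a median miRNA gene (1000 bp before the 5′ end and 95 bp after it), 2.54% of protein-coding genes had one. Among the other classes of RNA gene the share was 21.7% for snoRNA, 14.5% for tRNA, 10.1% for snRNA, 7.22% for lincRNA, 6% for antisense RNA and 3.35% for ncRNA genes, and it was 0.846% for pseudogenes and 0.378% for piRNA genes. The miRNA genes lay between the protein-coding genes and the antisense RNA genes in this order. The interval of the miRNA share includes the shares of antisense RNA and lincRNA genes, and that of protein-coding genes with their longer windows. It lies above the 2.97% of all genes and the 2.54% of protein-coding genes in the window of median length. No test of these differences was made, and neighbouring genes share regions: the 15 miRNA genes rest on 13 regions.

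**Figure D1:**
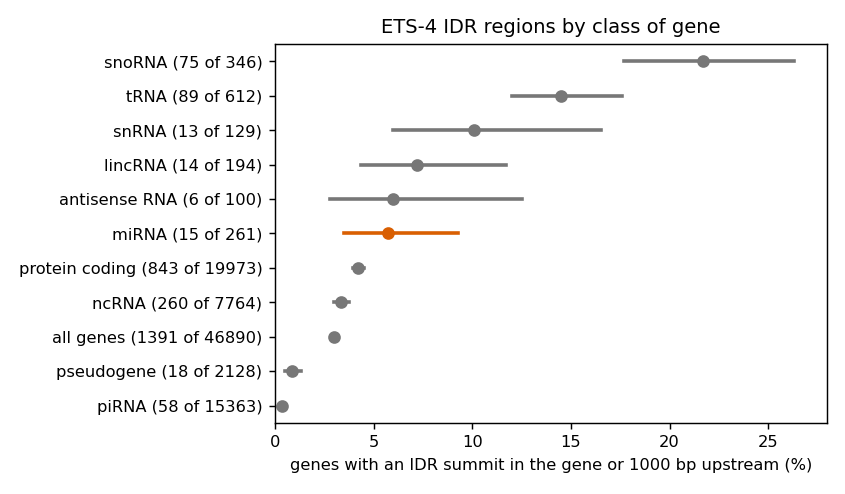
Share of genes of each Ensembl class with an IDR summit inside the gene or within 1000 bp upstream (x axis, percent); points are shares, lines Wilson 95% intervals, and counts stand beside the class names. miRNA genes (orange, 15 of 261, 5.75%) lie above all genes (2.97%) and below tRNA (14.5%) and snoRNA genes (21.7%).

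Mature sequences of the mir-51 family and of mir-239a, mir-239b, mir-80, mir-60 and mir-83 are printed first, since their seeds show which of these genes make related products. A single arm of the hairpin is shown for each gene, and the other arm, which has a different seed, is left out. Sequences are read from the WBcel235 reference at the mature positions given by RefSeq, 5′ to 3′, with the seed in capitals.
mir-51: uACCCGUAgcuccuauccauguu
mir-52: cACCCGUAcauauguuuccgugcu
mir-53: cACCCGUAcauuuguuuccgugcu
mir-54: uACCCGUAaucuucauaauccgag
mir-55: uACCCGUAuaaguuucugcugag
mir-56: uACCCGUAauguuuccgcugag
mir-239a: uUUGUACUacacauagguacugg
mir-239b: uUUGUACUacacaaaaguacug
mir-80: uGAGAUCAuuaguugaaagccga
mir-60: uAUUAUGCacauuuucuaguuca
mir-83: uAGCACCAuauaaauucaguaa
The first 6 share the seed ACCCGUA and are the mir-51 family. The seed is on the 5′ arm of the hairpin in mir-51, mir-52 and mir-53 and on the 3′ arm in mir-54, mir-55 and mir-56. Over all compared positions, seed included, mir-52 and mir-53 differ at 1 of 24, while mir-54 and mir-55 differ at 14 of 23. The mir-239a and mir-239b products differ at 2 of 22 compared positions and share the seed UUGUACU.

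The mir-51 family, which is expressed widely and is needed for embryonic development, held 5 of the 15 miRNA genes with an IDR region. All 6 annotated genes with this seed had a pooled region, and mir-53 was the member without an IDR region. The 5 genes rest on 4 regions at 3 loci. The strongest lay on X at 13145163 to 13145532, with its summit 254 bp upstream of mir-54, 424 bp upstream of mir-55 and 561 bp upstream of mir-56, and so counts for all 3 genes. Its signal was 190.8 in the pooled list (rank 56), 83.04 in replicate 1 (rank 48) and 108.5 in replicate 2 (rank 76). It ranked high in both replicates. Its signal was the highest of the 13 regions in the pooled list and in replicate 2, and in replicate 1 that of the mir-80 region was higher. The mir-54, mir-55 and mir-56 genes lie in an intron of F09A5.3 on its opposite strand, and the summit is 3747 bp from the 5′ end of that gene.

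The mir-51 gene, between protein-coding genes on IV (11026013 to 11026112, minus strand), had 2 IDR regions. The nearer, at 11025962 to 11026331, had its summit 35 bp upstream and a signal of 111.2 (rank 410), with 43.78 in replicate 1 (rank 612) and 75.14 in replicate 2 (rank 301). The farther, at 11026741 to 11027110 with its summit 814 bp upstream, had a signal of 90.5 (rank 783), with rank 2896 in replicate 1 and 728 in replicate 2. The farther region thus ranked within the first 1102 in replicate 2 and outside them in replicate 1. Its summit also lies 667 bp downstream of mir-53, the nearest other miRNA gene on that strand. The own window of mir-53 held a pooled region of rank 20203 (signal 27.36), with best ranks of 7778 and 28349 in replicates 1 and 2, at different summits. At mir-52 (IV, 14034008 to 14034107) the summit fell inside the gene, 29 bp from its 5′ end, in a region at 14033852 to 14034221 with a signal of 87.22 (rank 868), and ranks 872 and 1053 in replicates 1 and 2. This is the one IDR summit that lay within a miRNA gene itself.

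**Figure D2:**
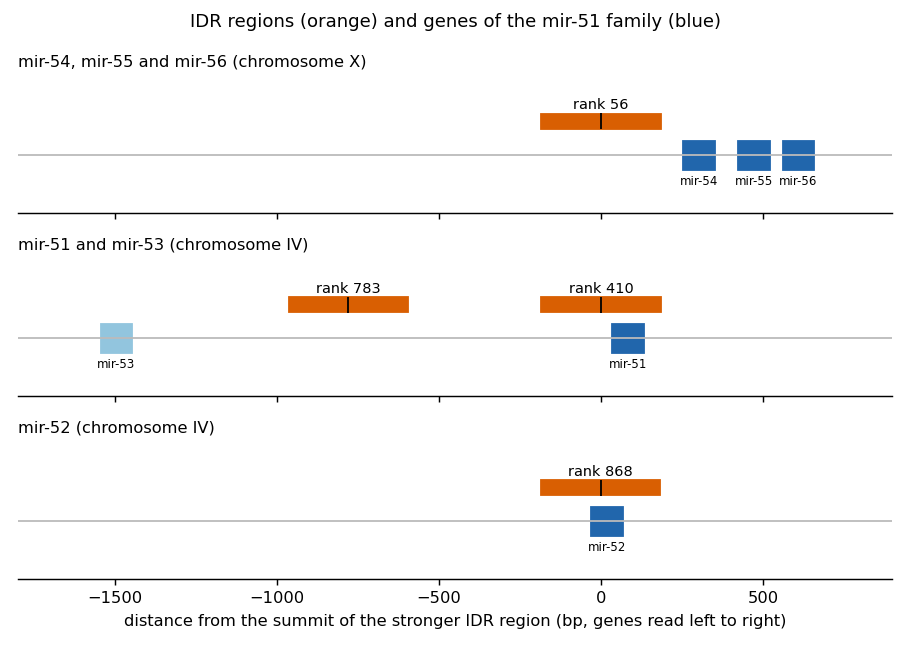
The 3 loci of the mir-51 family with an IDR region, drawn by distance from the summit of the stronger region (x axis, bp), with transcription from left to right. Blue boxes are miRNA genes (light blue: mir-53, without an IDR region), orange boxes IDR regions with their pooled rank, and ticks their summits. The summit of the region of rank 410 stands 35 bp before mir-51. That of the region of rank 56 stands farther off, 254 bp before mir-54, and that of rank 868 lies inside mir-52.

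A shared region between divergent genes was found at mir-239a and mir-239b, which have been studied for their effect on lifespan and stress resistance. These genes lie on X on opposite strands, at 11792445 to 11792542 (plus) and 11791302 to 11791399 (minus). The region between them, at 11791672 to 11792041, had its summit 588 bp upstream of mir-239a and 458 bp upstream of mir-239b. Its signal was 126.0 in the pooled list (rank 261), 71.33 in replicate 1 (rank 96) and 55.23 in replicate 2 (rank 830). Both replicates had it among their first 1102 regions, with a much higher rank in replicate 1. The region was also within 100 bp of the snoRNA gene C34E11.20, so which gene the region belongs to cannot be told from its position. The third gene with the seed UUGUACU, mir-238, had pooled regions but no IDR region.

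At mir-80 and mir-60 a strong region was found beside a single miRNA gene, more than 2000 bp from the nearest protein-coding start. The gene mir-80 belongs to the bantam or mir-58 family and has been linked to the response to dietary restriction (III, 8865270 to 8865367, minus strand). Its region at 8865350 to 8865719 had its summit 168 bp upstream and a signal of 173.3 (rank 85), with 88.48 in replicate 1 (rank 36) and 94.13 in replicate 2 (rank 140). The nearest protein-coding 5′ end, of K01F9.2, was 11593 bp away. The gene mir-60 is known from the intestine, where it affects the response to oxidative stress (II, 6328702 to 6328799, minus strand). Its region at 6328664 to 6329033 had its summit 50 bp upstream and a signal of 152.7 (rank 134), with 65.24 in replicate 1 (rank 143) and 89.28 in replicate 2 (rank 160). Here the nearest protein-coding 5′ end, of set-4, was 2492 bp away. Both regions stood in the first 160 of each list, and those of mir-60 differed least between replicates.

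The gene mir-83, a relative of the miR-29 family of mammals, had a region on IV at 7841215 to 7841584, with its summit 231 bp upstream (signal 88.9, rank 815). Replicate 1 ranked it 425 and replicate 2 ranked it 1416, so it was within the first 1102 of replicate 1 alone. The region at mir-77 (II, 12518824 to 12519193, summit 259 bp upstream, signal 86.79, rank 876) differed most between replicates. Its signal was 18.29 in replicate 1 (rank 11547) and 67.92 in replicate 2 (rank 435). This was also the one region of the 13 whose summit lay in a protein-coding promoter (from 1000 bp before a 5′ end to 200 bp after it), here those of srh-70, at -150 bp, and ceh-99, and it was within 100 bp of the snoRNA gene T21B4.20.

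The remaining 4 genes were intronic, on the strand of their host. For mir-4929 in E01G4.3 the region (II, 13461961 to 13462330, signal 114.8, rank 368, ranks 351 and 499 in replicates 1 and 2) had its summit 282 bp upstream. The promoter of this host held another IDR region (13469221 to 13469590, signal 89.7, rank 803). It was the only one of the 61 hosts of same-strand intronic miRNA genes with an IDR region in its own promoter. Of all protein-coding genes 2.59% had one there, and the difference was not tested. For mir-2214 in B0361.11 the summit was 14 bp upstream (III, 7278516 to 7278885, signal 87.82, rank 849, ranks 1981 and 775). For mir-8187 in ech-7 it was 567 bp upstream and 733 bp downstream of the 5′ end of the host (I, 14368855 to 14369224, signal 82.15, rank 1014, ranks 1468 and 2307). For mir-8192 in flcn-1 it was 91 bp upstream (II, 6943609 to 6943978, signal 80.26, rank 1077, ranks 3252 and 1184). The regions of mir-8187 and mir-8192 were outside the first 1102 of both replicates, and mir-4929 alone of the 4 was inside in both.

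**Figure D3:**
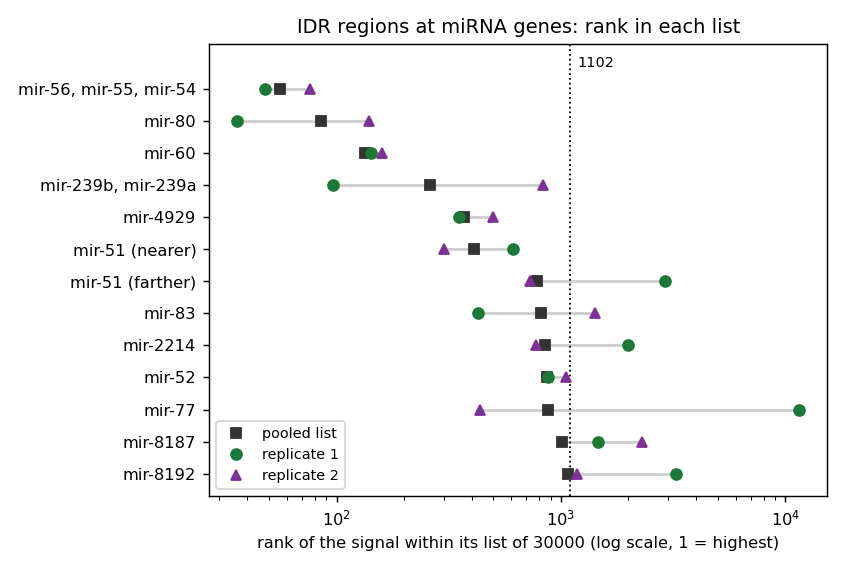
Rank of the signal (x axis, log scale, 1 is highest) of each of the 13 IDR regions at miRNA genes in the pooled list (squares) and, for the strongest overlapping region, in replicate 1 (circles) and replicate 2 (triangles); the dotted line marks rank 1102. The regions of mir-54 to mir-56, mir-80 and mir-60 stay at rank 160 or higher in all 3 lists, whereas mir-77 spans ranks 435 to 11547.

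Over all 13 regions, 7 were among the first 1102 of both replicates, 1 of replicate 1 alone, 3 of replicate 2 alone and 2 of neither. The same counts over all 1102 IDR regions are not given here, so these stand without a background. Summits in the replicate lists lay within 122 bp of the summit in the IDR list. Taken alone, the 1102 strongest regions of each replicate gave 12 miRNA genes, 4.6% in each, against 2.89% of all genes in replicate 1 and 2.99% in replicate 2. The replicates shared 9 of these genes. Those without an IDR region were mir-55b, which is antisense to mir-55, in replicate 1 and mir-1829b in replicate 2. At mir-1829b the best region ranked 719 in replicate 2 and 29949 in replicate 1.

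Most of the regions lay far from protein-coding starts. The nearest protein-coding 5′ end was more than 2000 bp away for 9 of the 13 regions (69.2%), against 32.4% of all 1102 IDR regions, and 1 of 13 lay in a protein-coding promoter against 39.5%. The 13 regions were chosen by position, so these shares are given as a description. A tRNA, snoRNA, snRNA or rRNA gene was within 100 bp of 2 of the 13, against 14.9% of all IDR regions. The median signal of the 13 regions was 90.5 and that of all IDR regions 102.4. The median GC content of the 101 bp around the summit was 47.5% and 46.5%.

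Summits lay upstream of the genes rather than downstream of them. Within the 1000 bp upstream, 14 miRNA genes had an IDR summit (5.36%), and within the 1000 bp downstream 2 had one (0.766%). Those 2 were mir-53, beside the farther mir-51 region, and mir-55b, whose downstream side holds the region upstream of mir-54. Both regions are thus also upstream of another miRNA gene. For protein-coding genes the shares were 2.39% upstream and 1.54% downstream, and among all pooled regions 49.0% of miRNA genes had a summit upstream and 37.9% downstream. No test of the difference was made. Of the 16 pairs of a gene and an IDR region, 6 had the summit within 250 bp upstream and 5 at 251 to 500 bp.

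**Figure D4:**
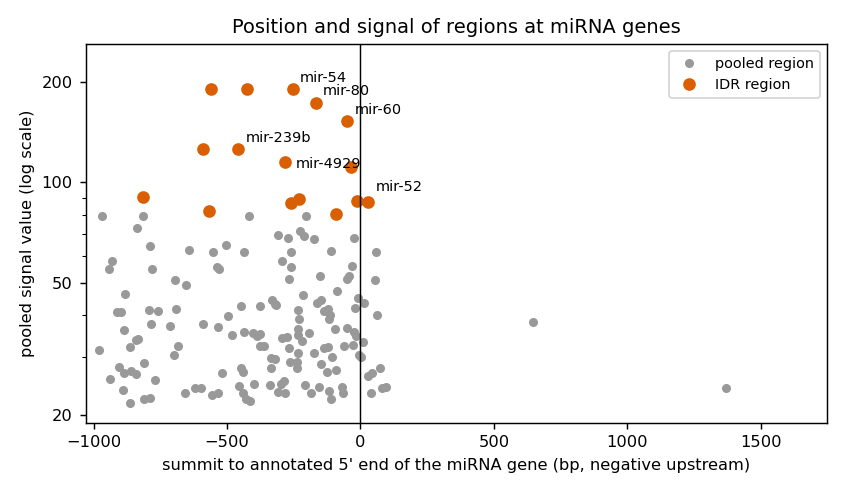
Signal in the pooled list (y axis, log scale) against the distance from the summit to the annotated 5′ end of the miRNA gene (x axis, bp, negative upstream), with 1 point for each pair of a gene and a region; grey points are pooled regions and orange points IDR regions. Of 16 IDR points 15 lie upstream of the gene, and that of mir-52 lies inside it, 29 bp past the 5′ end. The window is mostly upstream by the counting rule, and of 168 pooled points 15 (8.93%) lie inside the gene. The 2 points farthest to the right belong to let-7, whose annotation is long.

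Genes with an IDR region were found both within and outside host genes. Of the 152 miRNA genes outside protein-coding genes 8 had one (5.26%), of 67 in an intron on the same strand 4 (5.97%), of 30 in an intron on the opposite strand 3 (10%), which share the mir-54 region, and of 12 that overlap an exon none. By chromosome the counts were 5 of 74 on X, 4 of 49 on II, 3 of 50 on IV, 2 of 27 on III, 1 of 33 on I and none of 28 on V. Those on X are mir-54, mir-55 and mir-56, which share a region, and mir-239a and mir-239b, which share another. The same shares of all genes by chromosome are not given here, so these counts stand without a background. The classes and the chromosomes were not tested against each other.

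Sequence around the summits was searched for words on either strand, in the 50 bp to each side. The ETS core GGAA was in 7 of the 13 regions (53.8%), against 55.5% of all IDR regions and 66.2% of pooled regions that lie apart from IDR regions. The longer ETS word CCGGAA, which contains the core, was in 1 (mir-80), against 3.72% and 5.11%, and CCGGAT and CAGGAA, of which the latter contains the core, were in none, against 1.63% and 4.08% of all IDR regions. The GATA-factor word TGATAA was in 2 (mir-60 and mir-83), against 27.0% of all IDR regions and 9.79% of the others. The sites are shown with the word in capitals and the bases on each side of it, from the WBcel235 reference, because they are the only matches to the 6-letter words at these regions.
mir-80, CCGGAA, chrIII:8865532-8865561, plus strand: aggggtgacttgCCGGAAtaagtgaaggaa
mir-60, TGATAA, chrII:6328836-6328865, minus strand: ttgtggtgtaggTGATAAcagtgctctttg
mir-83, TGATAA, chrIV:7841353-7841382, minus strand: tttccacgtaacTGATAAcaaaatatattg
The centre of the word was 12 bp from the summit at mir-80, 2 bp at mir-60 and 32 bp at mir-83. The strongest region, upstream of mir-54, held none of these words, and a match or its lack says nothing of what bound there.

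Below the IDR threshold the next miRNA genes followed closely. The weakest IDR region at a miRNA gene was that of mir-8192 (rank 1077, signal 80.26). The first region outside, at rank 1105 (signal 79.35), was a further one upstream of mir-52, which has an IDR region already. The first at genes without an IDR region was at rank 1115 (III, 2171848 to 2172217, signal 79.04), in an intron of gcn-1 and 419, 815 and 969 bp upstream of the clustered genes mir-229, mir-64 and mir-65. It had the same −log10 q value as the IDR regions (3.44) and ranks 1250 and 2596 in replicates 1 and 2. Next came mir-354 (rank 1418, in the promoters of rps-20 and ekl-4), mir-58a of the bantam family (rank 1525, 227 bp upstream, ranks 5488 and 1204), mir-90 (rank 1638) and mir-253 (rank 1656, in the promoter of its host F44E7.5). The genes mir-86 and mir-8211 share a region of rank 1729, and mir-82, another bantam family gene, had rank 1762 (174 bp upstream, ranks 3460 and 2945). The list went on with mir-55b (rank 1964), mir-243 (2020), mir-1829b (2172), mir-4930 (2203) and mir-4936 (2249, in the promoter of nduf-9). The summits at mir-243 and mir-1829b lay 250 and 358 bp downstream of the 5′ end of their hosts. The genes mir-354 and mir-8211 overlap an exon, mir-4930 lies in an intron on the opposite strand and mir-4936 lies outside protein-coding genes. Of these 15 genes 11, on 9 regions, lie in an intron on the strand of their host. That holds for 4 of the 15 genes with an IDR region and for 67 of all 261 (25.7%), and the difference was not tested.

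In all, 136 of the 261 miRNA genes had a pooled region (52.1%, against 39.7% of all genes and 62.0% of protein-coding genes), over 145 regions. The protein-coding windows are longer because they hold the gene bodies. In a window as long as that of a median miRNA gene, 32% of protein-coding genes had a pooled region. The 121 miRNA genes with a pooled region but no IDR region had best ranks from 1115 to 29857 (median 11244) and signals from 21.81 to 79.04. Of these 121, 70 also had a region in both replicate lists, 50 in 1 and 1 in neither. In the replicate lists of 30000, 122 genes (46.7%, against 42.5% of all genes) and 129 genes (49.4%, against 40% of all genes) had a region in replicates 1 and 2. These lists hold background by design, and 98 miRNA genes had no region in any of the 3 lists of 30000. That count, and the split of the 121 genes by replicate lists, are not given for all genes. They thus stand without a background. The share grew with the number of regions taken: the 551 strongest pooled regions touched 9 miRNA genes (3.45%, against 1.57% of all genes), the 2000 strongest 26 (9.96% against 5.30%) and the 10000 strongest 69 (26.4% against 19.1%).

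Known groups of miRNA genes are described by counts, to be read beside the 5.75% of all miRNA genes with an IDR region and the 52.1% with a pooled one, and no difference between groups was tested. The lists were chosen with earlier results of these data known, so a high count in a list is a description only. None of the 9 genes of the developmental timing group, lin-4, let-7 and their relatives, had an IDR region. Among them mir-241 came closest (rank 3222, 528 bp upstream, best rank 1109 in replicate 1 and 22839 in replicate 2), and lin-4 and let-7 had best pooled ranks of 6707 and 9311. No IDR region was at the 8 genes of the mir-35 family, which act in the embryo: mir-35 to mir-41 share a pooled region of rank 26895, mir-42 had one of rank 19584 elsewhere on II, and replicate 1 had none at any of the 8. Of the 8 matched genes of the bantam family, mir-80 alone had an IDR region, and mir-81 had no pooled region.

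Of 14 genes studied for lifespan or stress, mir-80, mir-83, mir-239a and mir-239b had an IDR region, on 3 regions, and all 14 had a pooled one. The other members included mir-34 (rank 3949), mir-71 (rank 5947), which promotes long life, and lin-4. An IDR region lay farther upstream for both of the former, 1804 bp from mir-34 (X, 2971467 to 2971836, signal 127.7, rank 253) and 1397 bp from mir-71 (I, 9381232 to 9381601, signal 99.81, rank 601). These are outside the 1000 bp rule and are not counted. Among 5 intestinal genes mir-60 had an IDR region, while mir-240 and mir-786, which act in the gut rhythm of defecation, share a pooled region of rank 24358. Of 8 neuronal genes none had an IDR region and 3 had a pooled one. Among them lsy-6, which sets the identity of a taste neuron, had no region in any list. Of 15 others, among them the muscle gene mir-1, none had an IDR region and 11 had a pooled one.

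**Figure D5:**
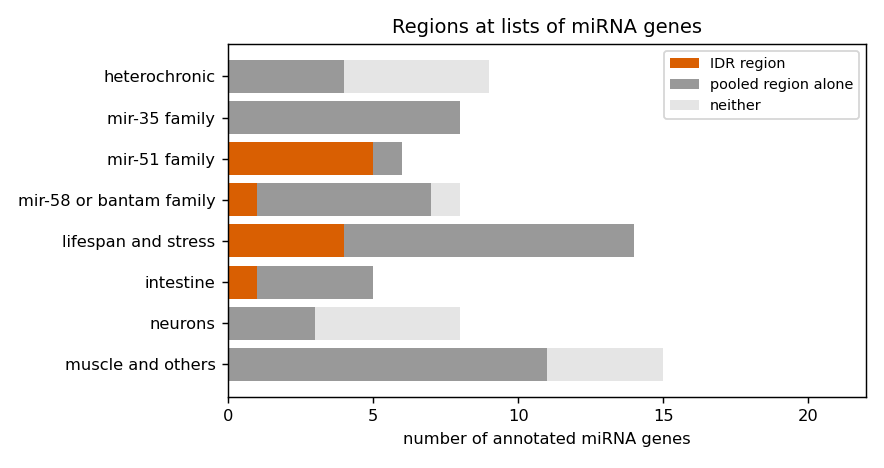
Number of annotated miRNA genes (x axis) in each list of genes grouped by family or known role, split into those with an IDR region (orange), with a pooled region alone (grey) and with neither (light grey). The mir-51 family has 5 of 6 and the lifespan and stress list 4 of 14 with an IDR region, and the lists share mir-80 and lin-4 between them. The lists were chosen with earlier results of these data known.

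The proteins that make and use miRNAs were examined as the other part of the pathway. Of 24 such genes, 2 had an IDR summit in the promoter, against 2.59% of protein-coding genes, and 3 in the gene or 1000 bp upstream, against 4.22%. The gene nhl-2, for a TRIM-NHL cofactor of the miRNA complex, had rank 9 of all IDR regions (III, 4899841 to 4900032, signal 288.8, summit 824 bp upstream, ranks 10 and 8 in replicates 1 and 2). The gene hrpk-1, for an RNA-binding protein that acts with miRNAs, had rank 191 (I, 6317698 to 6318067, signal 137.9, 186 bp downstream of the 5′ end, rank 210 in both replicates). Both regions ranked alike in the replicates. The gene ain-1, for a GW182-like partner of Argonaute, had a region inside it (X, 16614134 to 16614503, signal 111.3, rank 409, ranks 206 and 2654).

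No IDR region was in the gene or upstream window of drsh-1, pash-1 or dcr-1, which encode the nucleases of hairpin processing and a partner, or of the Argonaute genes alg-1, alg-2 and alg-5. Their best pooled ranks were 7169 for drsh-1, 20253 for dcr-1, 4190 for alg-1, 4043 for alg-2 and 3646 for alg-5, and pash-1 had none. The highest ranks outside the IDR list were those of the exonuclease gene xrn-2 (rank 1194), vig-1 (1249) and cgh-1 (1317). As targets of developmental miRNAs 9 genes were listed, which include lin-14 (lin-4) and cog-1 (lsy-6). None had an IDR summit in the promoter, against 2.59% of protein-coding genes. In the gene or 1000 bp upstream 2 had one, both inside the gene, against 4.22%. These were the nuclear receptor gene daf-12 (X, 10637399 to 10637768, 1676 bp downstream of its 5′ end, signal 96.27, rank 658) and lin-14 (X, 11471896 to 11472265, 6521 bp downstream, signal 80.06, rank 1081). The replicate 1 ranks of these regions, 2359 and 5333, were lower than those of replicate 2, 556 and 1060. Both genes are long, and their windows held 10 (daf-12) and 18 (lin-14) pooled regions. The counts of targets were not tested.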

How the data were processed

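Chromatin immunoprecipitation with sequencing was analysed in 2 biological replicates of 1 group. Each of the 4 deposited lists has the narrowPeak layout and positions on ce11. The authors derived each list from alignments and a control file, per the text files deposited beside them, whereas aligner, caller and IDR threshold were not stated there or in the labels (not given in the sources used here). The signal value and the −log10 q value of a region are the authors', as deposited, and were not scaled between lists. Depth is unknown, so a region's precision is unknown.

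Gene positions are from Ensembl release 115 (WBcel235), whose 6 chromosomes contain every region. Mature miRNA positions and sequences are from RefSeq on the same assembly, found for 260 of 261 genes. Annotated miRNA 5′ ends are mostly hairpin ends, not starts of transcription. A replicate's value at a region is its strongest region overlapping by at least 1 bp. A host is a protein-coding gene, and a miRNA gene touching any exon was classed apart.

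With 1 group and no contrast there was no test; Wilson 95% intervals count genes. The counting was tested on simulated summits. Members and lists were chosen with earlier results of these data known. Named genes are all those with an IDR region, the next 15 by pooled rank and the listed families. Listed names without a match were mir-58, mir-1834 and ntl-1; mir-58a was matched through its RefSeq symbol. Alternatives covered 12 choices for each count. Scripts ran in Python 3.11.15. Tables were handled with pandas 2.3.3 and numpy 2.4.6, intervals came from scipy 1.17.1, and plots from matplotlib 3.10.9.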

Additional observations from a re-analysis of the deposited data

How the results depend on the processing

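The count of 15 miRNA genes with an IDR region stayed within 1.5 times of that value under 9 of 12 alternatives and the count of 136 with a pooled region under 9 of 12. With the summit inside the gene alone they were 1 and 14, since the genes are short. The 551 strongest IDR regions gave 9 genes. Only genes outside protein-coding genes gave 8 and 69, from 152 genes. Pooled regions overlapped in both replicate lists gave 82 genes, and IDR regions among the first 1102 of both replicates gave 10. For the alternatives without a replicate, the other replicate's own list was used, since no IDR or pooled list exists without one. Its 1102 strongest regions gave 12 genes in either case, which include mir-55b in replicate 1 and mir-1829b in replicate 2, both without an IDR region. Its full list of 30000 gave 122 genes in replicate 1 and 129 in replicate 2. These counts stand among the alternatives above, but they do not show how the IDR or pooled count would change without a replicate. A window of 2000 bp gave 21 genes, adding mir-34, mir-58a, mir-63, mir-71, mir-235 and mir-2221, and without regions beside small RNA genes 12 were left. Groups of neighbouring genes counted once gave 13 of 209. No paired analysis was possible because there is 1 group and no contrast. The unknown depth of the libraries limits every rank, and ranks far down a list of 30000 separate little.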
